A study of Rattus norvegicus with 12 samples.

Results

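The choroid plexus secretes proteins into the cerebrospinal fluid (CSF), and the transcripts of 7 of these proteins were examined here: IGF2, IGFBP2, PTGDS, ENPP2, CLU, CST3 and APOE. The set was named by symbol, and a gene entered when its Ensembl identifier was paired with that symbol in the gene lists that accompany the study. Of 8 named symbols, 7 could be paired, out of 32883 genes in the deposited files. VEGFA had no pairing and was not analysed here. All 7 were paired through a list held only for its strongest genes, so that entry depended on expression level, and the set was named with earlier results of these data known.

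RNA was sequenced from choroid plexus of male Sprague-Dawley rats, 9 weeks of age, housed in a 12:12 h light cycle, with 6 rats sampled in the light phase at zeitgeber time 8 h and 6 other rats in the dark phase at zeitgeber time 20 h. Each library came from 1 rat, and all rats were anesthetized with ketamine and xylazine for tissue collection, the rats of the dark phase being kept from light. No genetic change or drug distinguished the groups, and each phase was sampled at 1 time only, so that the course over the day is not covered. The comparison asked whether the tissue's secretory transcripts differed between the inactive and the active phase of this nocturnal animal.

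The choroid plexus is a sheet of epithelial cells folded over a core of stroma and blood vessels, and it produces most of the CSF. Its epithelium releases carrier proteins such as transthyretin (TTR), protease inhibitors, lipid-binding proteins and growth factors, which the CSF carries through the ventricles and into the brain tissue. IGF2 is a growth factor that acts through the insulin-like growth factor receptors, and IGFBP2 binds it. PTGDS makes prostaglandin D2 and also carries small lipophilic molecules, while ENPP2 (autotaxin) makes the signalling lipid lysophosphatidic acid. CLU and APOE are lipid-carrying apolipoproteins, and CST3 (cystatin C) inhibits cysteine cathepsins.

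Expression is given in TPM, a unit that corrects for gene length and has the same total in each library. The number of reads behind a value is unknown, but steps in the FPKM of weak genes gave relative depths of 0.885 to 1.36 for the light-phase libraries and 0.888 to 1.08 for the dark-phase libraries (mean depth set to 1). All 11 epithelial markers that could be paired were above 0 in every library, with sums of 260300 to 311100 TPM in light-phase rats and 293700 to 316900 TPM in dark-phase rats. TTR made up most of each sum, at 253710 to 304180 TPM in light-phase rats and 286835 to 309722 TPM in dark-phase rats. Of the 11 markers, 4 were higher in dark-phase rats (CLIC6, OTX2, PRLR and KL) and 2 in light-phase rats (AQP1 and SLC4A5) at an FDR below 0.05 in limma, a linear model fitted across all genes. That is 54.5% of the 11 markers, where limma called 22.5% of the 1703 genes averaging 60 TPM or more, as all 11 do, and 17.7% of all genes tested. The list was drawn up with earlier results of these data known, so the count describes these markers only. In bulk tissue, fewer cells of a type and less RNA per cell cannot be told apart.

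One library stood apart before any comparison was made. Light-phase replicate 2 held 22590 TPM of hemoglobin transcripts (HBB and HBA-A1), where the other light-phase libraries had at most 7481 TPM and the dark-phase libraries 3286 to 8515 TPM. The summed fibroblast and meningeal markers (5 of 15 paired) reached 1973 TPM in it, against at most 1056 TPM in the other light-phase libraries and 1035 to 1152 TPM in dark-phase rats. MGP, also a gene of blood vessels, made up 1607 TPM of that sum, while of the other 4 markers DCN was the lowest of all libraries, OGN lay below another light-phase library, and CRABP2 and PDGFRA lay within the range of the rest. PLVAP, the only 1 of 11 endothelial markers with a pairing usable here, was at 124 TPM against at most 96.8 TPM elsewhere. The macrophage markers LYZ2 and CD74 (2 of 14 paired) summed to 952.5 TPM in it, at most 762.7 TPM in the other light-phase libraries and 650.3 to 865.3 TPM in dark-phase rats. The ependymal markers (3 of 8 paired: DYNLRB2, RARRES2 and VIM) summed to 433.6 TPM in it, at most 323.9 TPM in the other light-phase libraries and 240.1 to 305.5 TPM in dark-phase rats, with VIM the only 1 of the 3 that was highest there. DYNLRB2, of motile cilia, also differed between the phases, at 169 ± 21.0 TPM and 133 ± 22.4 TPM (± SD, 6 rats per phase, limma FDR = 0.0343). TTR was lowest in light-phase replicate 2. No defining marker of neurons or oligodendrocytes (0 of 14) had a pairing usable here, and of the astrocyte list only ALDOC (1 of 9), which was at 36.0 TPM in this library against 43.1 to 107 TPM in the others.

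The 7 genes were among the strongest transcripts of the tissue. Together they held 5.75 to 6.90% of all TPM in the light-phase libraries (6.29 ± 0.431%, SD, n = 6) and 6.06 to 6.58% in the dark-phase libraries (6.24 ± 0.211%, SD, n = 6). CST3 ranked 2 of all genes by mean expression, behind TTR, which alone held 29.9% of the TPM. IGFBP2 ranked 8, PTGDS 9, CLU 11, ENPP2 13 and IGF2 30, whereas APOE ranked 375.

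The levels fell into 4 steps that no library bridged. CST3 lay between 32317 and 40917 TPM over the 12 libraries. Next came IGFBP2 (mean 6425 TPM over all libraries), PTGDS (6320 TPM), CLU (5930 TPM) and ENPP2 (5765 TPM), whose ranges overlapped one another, so that neighbours in this order did not differ beyond the spread between rats. IGF2 lay between 1800 and 2276 TPM, below every value of these 4 genes. APOE had 561 TPM in light-phase replicate 2 and 193 to 302 TPM in the other libraries.

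None of the 7 genes passed the test between the phases, either after adjustment or at an unadjusted p below 0.05. This count of 0 of 7 stands against 17.7% of the 12513 genes tested that were called by limma at an FDR below 0.05 (9.64% higher and 8.08% lower after dark, or 1206 and 1011 genes), and 30.6% with an unadjusted p below 0.05. Of the 66 genes averaging 1000 TPM or more, a group that includes all of the set except APOE, 3 were called (4.55%), namely SOSTDC1 and RPS27, higher in light-phase rats, and CLIC6, higher in dark-phase rats. A count of 0 in 7 is near that share. The model draws the variance of each gene toward a trend with level, which bears on the strongest genes. TTR had a standard error of 0.145 with an SD within phases of 0.11, and CST3 0.094 with an SD of 0.133. Without that trend ENPP2 and CLU were still not called (limma FDR = 0.189 and 0.204), and the share among strong genes was not counted. The share over all genes depended on the model, since 346 of the 12513 genes were called with the ratio of summed FPKM to TPM of each library as a covariate. That ratio itself nearly separates the phases. The balance of directions over all genes depended on the scaling, with 1458 genes higher and 730 lower in dark-phase rats when libraries were scaled to their total without TTR. Ranges of the phases overlapped for all 7 genes, while they did not overlap for 8.26% of the genes tested (5.12% higher and 3.14% lower after dark).

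**Figure D1:**
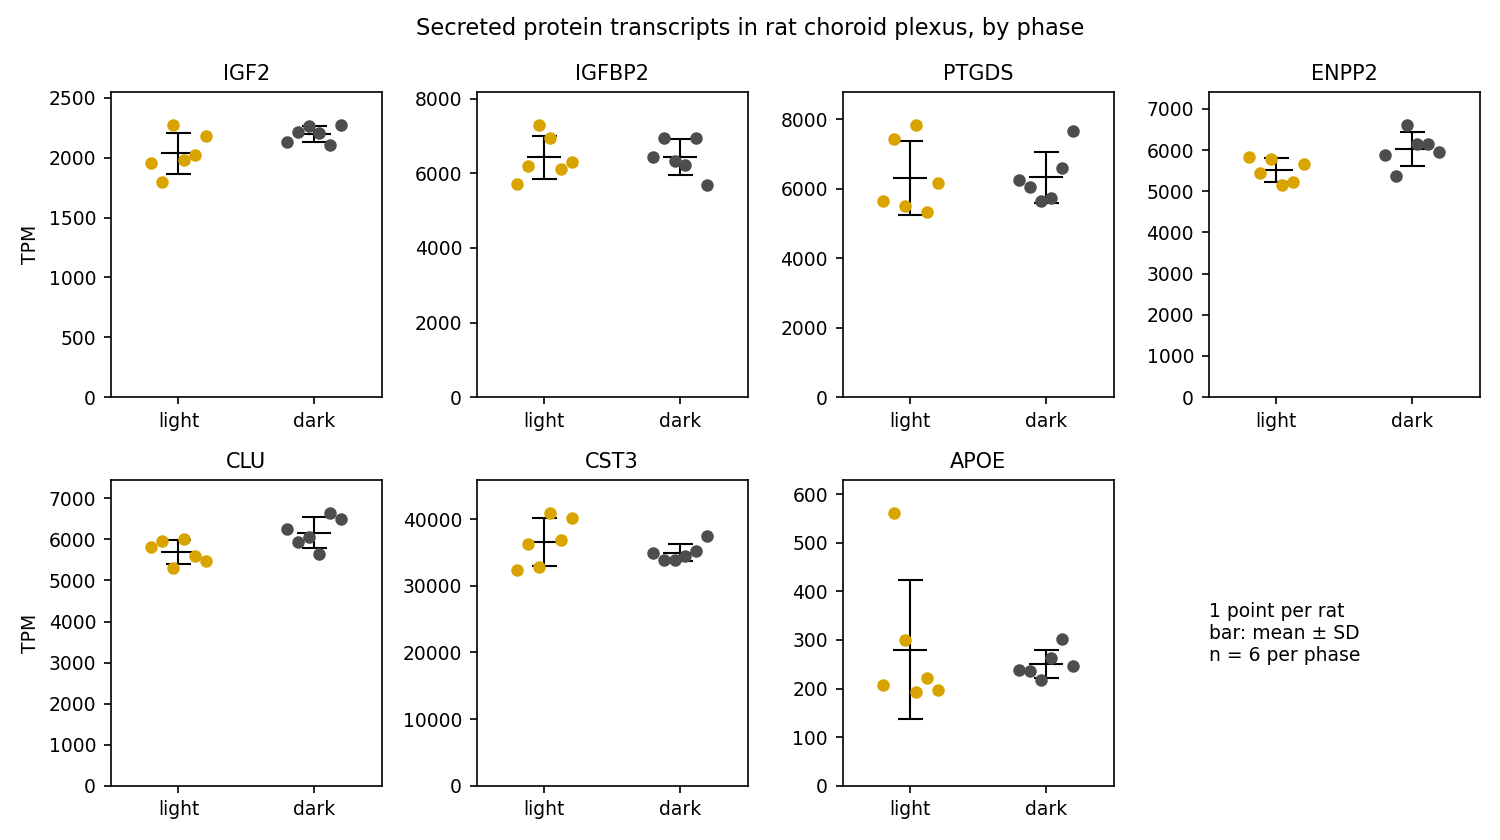
TPM as deposited (vertical axes, each from 0) of the 7 genes in light-phase rats (yellow) and the dark phase (grey), with 1 point per rat and bars for the mean ± SD (n = 6 per phase). The phases overlap in each panel, and the APOE panel shows light-phase replicate 2 at 561 TPM, above the other 11 libraries.

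The insulin-like growth factor pair came first. IGF2 had 1800 TPM at its lowest, 2002 TPM at the median and 2273 TPM at its highest in light-phase rats, and 2106, 2211 and 2276 TPM in dark-phase rats. The dark-phase libraries were bunched at the upper end of the light-phase range, and the lowest value was that of light-phase replicate 2. The means were 2036 ± 169 TPM and 2199 ± 68.6 TPM (± SD, 6 rats per phase), 8.04% higher in dark-phase rats. On the log2 scale of scaled TPM plus 0.5, used for all fold changes below, the difference was 0.10 (95% confidence interval -0.04 to 0.24, limma FDR = 0.324), within the spread between rats. Without light-phase replicate 2 it was 0.05 (limma FDR = 0.565).

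IGFBP2, which binds insulin-like growth factors and limits their access to receptors, had 5718, 6244 and 7300 TPM (lowest, median and highest) in light-phase rats and 5680, 6376 and 6953 TPM in dark-phase rats. The phases covered nearly the same range, with the highest library in light-phase rats and the lowest in dark-phase rats. Means were 6424 ± 583 TPM and 6426 ± 483 TPM (± SD, 6 rats per phase). On the scaled log2 values the fold change was -0.01 (95% confidence interval -0.19 to 0.16, limma FDR = 0.935). That interval corresponds to changes from -12.3 to 12.0%.

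There were 3.16 ± 0.263 IGFBP2 transcripts per IGF2 transcript in light-phase rats and 2.93 ± 0.285 in dark-phase rats (± SD, 6 rats per phase). The ratio ranged from 2.89 to 3.50 and from 2.50 to 3.30, so that the phases overlapped. Among the 21 pairwise ratios between the 7 genes, 0 separated the phases.

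Of the insulin-like growth factor axis, 5 of 22 listed genes had a usable pairing, namely IGF2 and 4 binding proteins with IGFBP2 among them, and 0 of the 5 were called by limma (0 with an unadjusted p below 0.05). Over all genes tested these shares were 17.7% and 30.6%, so a count of 0 in 5 does not set these genes apart. IGFBP7, a secreted protein prominent in blood vessels, had 368 ± 173 TPM in light-phase rats and 294 ± 29.4 TPM in dark-phase rats (± SD, 6 rats per phase, limma FDR = 0.394). Its light-phase spread came with light-phase replicate 2, at 721 TPM against 262 to 334 TPM in the other libraries. IGFBP4 was at 55.7 ± 11.5 TPM and 49.8 ± 6.73 TPM, and IGFBP5 at 54.0 ± 17.5 TPM and 61.8 ± 12.4 TPM (± SD, 6 rats per phase).

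The receptor that clears IGF2, IGF2R, was paired only in the study's list of genes called between these phases, so its values are given as a description. It had 28.1 to 33.6 TPM in light-phase rats and 35.4 to 40.7 TPM in dark-phase rats.

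The upstream region of Igfbp2 is shown because it contains the letters CACGTG, an E-box, to which the CLOCK and BMAL1 proteins of the circadian clock are known to bind. RefSeq gave upstream windows of 250 bases (assembly GRCr8) for 5 of the 7 genes (8 windows, some genes having several starts), and E-boxes were searched on both strands as CACGTG, which reads the same on either. The letters occurred in 5.59% of 33469 windows of all genes and in 1 of the 8 windows of the set. In Igfbp2 (chr9:81864561-81864810, plus strand, GRCr8) they began at position -140 from the transcription start, in capitals below. The transcript level of IGFBP2 was as given above for the 2 times sampled, and whether any protein binds here was not measured.
Igfbp2: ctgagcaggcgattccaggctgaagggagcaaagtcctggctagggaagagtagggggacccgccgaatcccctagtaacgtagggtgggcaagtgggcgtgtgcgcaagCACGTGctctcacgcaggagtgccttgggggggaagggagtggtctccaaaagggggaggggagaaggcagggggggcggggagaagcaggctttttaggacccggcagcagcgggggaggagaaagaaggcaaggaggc

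The same windows were searched for the D-box, to which DBP and NFIL3 are known to bind, as TTATGTAA or TTACGTAA on both strands. A D-box was present in 0.932% of all windows and in 1 of the 8 windows of the set, that of Ptgds, shown for that reason (chr3:28682979-28683228, minus strand, GRCr8). There it read TTACATAA on the strand of the gene, in capitals, beginning at position -187. Neither motif was in the other windows of the set, and Clu and Enpp2 had no window.
Ptgds: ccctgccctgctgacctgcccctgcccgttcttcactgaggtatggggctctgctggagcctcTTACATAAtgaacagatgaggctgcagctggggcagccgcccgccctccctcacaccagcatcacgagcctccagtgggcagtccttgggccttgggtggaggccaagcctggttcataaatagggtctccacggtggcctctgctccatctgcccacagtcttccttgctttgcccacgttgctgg

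PTGDS and ENPP2 are the secreted enzymes of the set, each producing a lipid mediator. PTGDS, whose product prostaglandin D2 is known as a sleep-promoting signal, had 5337, 5892 and 7840 TPM (lowest, median and highest) in light-phase rats and 5645, 6160 and 7659 TPM in dark-phase rats. Light-phase replicates 2 and 4 (7415 and 7840 TPM) and dark-phase replicate 6 (7659 TPM) stood above the remaining 9 libraries, so that high values occurred in both phases. Means were 6313 ± 1060 TPM and 6327 ± 738 TPM (± SD, 6 rats per phase). On the scaled log2 values the fold change was -0.00 (95% confidence interval -0.25 to 0.24, limma FDR = 0.990). Of the prostaglandin pathway, 3 of 22 listed genes were paired, PTGDS included, and 0 were called by limma (0 with an unadjusted p below 0.05), where these shares were 17.7% and 30.6% over all genes tested. PTGES3, a co-chaperone with prostaglandin E synthase activity, had 110 ± 5.42 TPM in light-phase rats and 116 ± 4.74 TPM in dark-phase rats (± SD, 6 rats per phase, limma FDR = 0.332).

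ENPP2 had 5154, 5550 and 5833 TPM in light-phase rats and 5363, 6043 and 6615 TPM in dark-phase rats (lowest, median and highest). In the dark phase 5 of 6 libraries lay above all light-phase libraries, and dark-phase replicate 2, at 5363 TPM, lay within them. Means were 5516 ± 290 TPM and 6015 ± 411 TPM (± SD, 6 rats per phase), 9.05% higher in dark-phase rats. The log2 fold change of 0.11 (95% confidence interval -0.02 to 0.23) did not pass the test (limma FDR = 0.228; two-sided exact permutation test, p = 0.0541).

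Around ENPP2, 3 of 19 listed genes of lysophosphatidic acid production, breakdown and reception were paired, ENPP2 included. PLPP3, a membrane phosphatase that degrades this lipid, rose from 54.1 ± 6.22 TPM in light-phase rats to 68.8 ± 2.90 TPM in dark-phase rats (± SD, 6 rats per phase). The highest light-phase library (64.7 TPM) and the lowest dark-phase library (64.9 TPM) all but met, and after scaling the phases overlapped. The log2 fold change was 0.33 (95% confidence interval 0.19 to 0.48, limma FDR = 0.0046). ENPP5, a relative of ENPP2, had 93.2 ± 2.72 TPM and 92.7 ± 3.25 TPM (± SD, 6 rats per phase, limma FDR = 0.705).

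Paired only through the list of called genes, and therefore described without a test, LPAR1, a receptor of lysophosphatidic acid, was barely above 0, at 0.838 ± 0.280 TPM in light-phase rats and 1.65 ± 0.524 TPM in dark-phase rats (± SD, 6 rats per phase). PLPP2, a phosphatase of the same family as PLPP3, had 20.2 to 23.4 TPM in light-phase rats and 13.9 to 19.3 TPM in dark-phase rats.

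Among the lipid carriers, CLU (clusterin, also an extracellular chaperone) had 5312, 5707 and 6001 TPM (lowest, median and highest) in light-phase rats and 5635, 6153 and 6639 TPM in dark-phase rats. The 4 highest values were all from the dark phase, while the other 2 dark-phase libraries lay inside the light-phase range. Means were 5694 ± 282 TPM and 6167 ± 371 TPM (± SD, 6 rats per phase), 8.30% higher in dark-phase rats. The log2 fold change of 0.10 (95% confidence interval -0.02 to 0.22) did not pass the test (limma FDR = 0.253; two-sided exact permutation test, p = 0.0519). CLU came closest of the 7 genes to a call under any alternative, with limma FDR = 0.0976 when each library was scaled to its total without TTR.

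APOE, the lipid carrier made by astrocytes and macrophages in the brain, was the weakest gene of the set, and 1 library widened its spread between rats. It had 193, 214 and 561 TPM in light-phase rats and 217, 242 and 302 TPM in dark-phase rats (lowest, median and highest). Without light-phase replicate 2, light-phase values spanned 193 to 300 TPM and overlapped with the dark-phase values over most of that range. With all libraries, means were 280 ± 143 TPM and 250 ± 29.6 TPM (± SD, 6 rats per phase). On the scaled log2 values the fold change was -0.07 (95% confidence interval -0.52 to 0.38, limma FDR = 0.866).

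The direction of the APOE difference rested on that library. Without it the light-phase mean was 224 ± 44.1 TPM (SD, n = 5), the log2 fold change turned to 0.14 (95% confidence interval -0.10 to 0.38), and the gene was still not called (limma FDR = 0.410). With all libraries and the FPKM to TPM covariate the log2 fold change was -0.477 (limma FDR = 0.440). In light-phase replicate 2, APOE was 2.38 times the median of the other 11 libraries, together with HBB at 3.50 times, HBA-A1 at 3.60 times, VIM (of the ependymal list) at 2.79 times, IGFBP7 at 2.45 times, MGP at 2.36 times and PLVAP at 1.91 times. LYZ2 and CD74, marking macrophages, were at 1.32 and 1.41 times, and DCN, a fibroblast marker, was below all other libraries at 0.567 times. The astrocyte marker ALDOC was below all other libraries as well. The part of these other tissues in the APOE value was not tested.

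**Figure D2:**
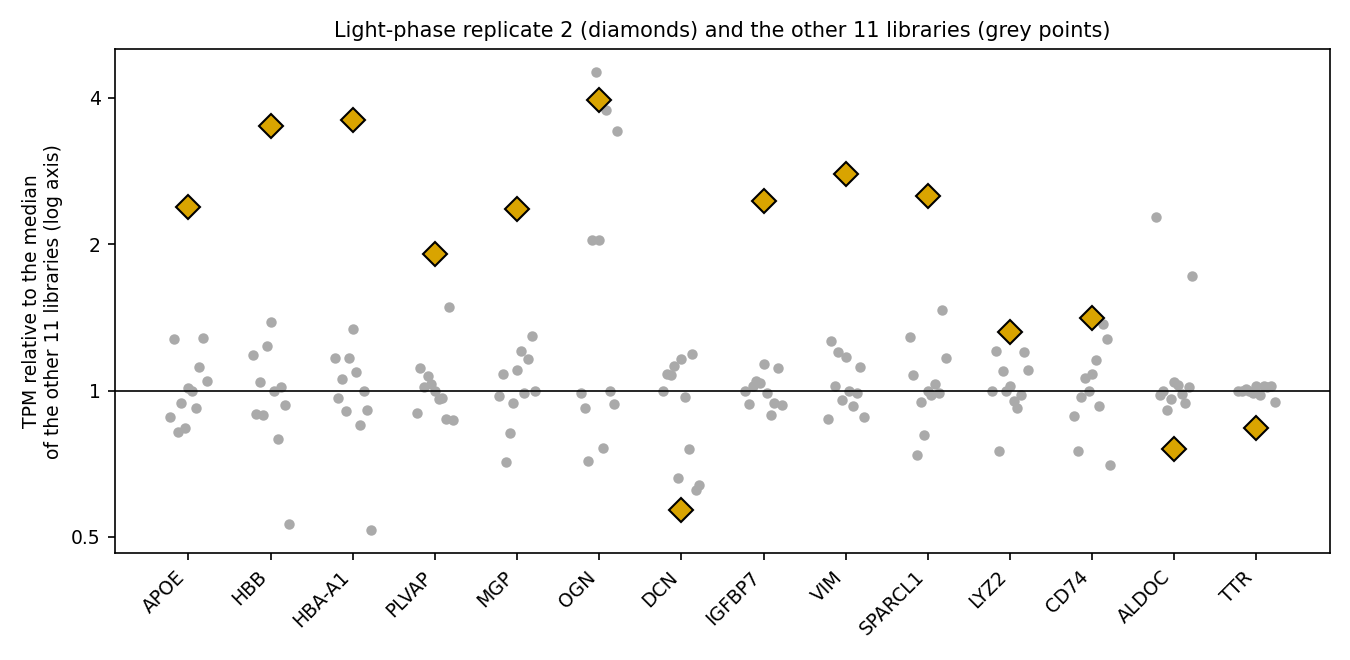
TPM of each gene divided by the median of the 11 libraries other than light-phase replicate 2 (vertical log axis), for APOE, markers of blood, vessels, stroma, macrophages and astrocytes, and TTR. Diamonds are light-phase replicate 2 and grey points the other 11 libraries. APOE lies at 2.38 and, like HBB, HBA-A1, PLVAP, MGP, IGFBP7, VIM and SPARCL1 (1.91 to 3.60), above all other libraries, as LYZ2 (1.32) and CD74 (1.41) also do by less. OGN lies at 3.95 with another library above it, and DCN (0.567), ALDOC (0.760) and TTR (0.838) lie below all others.

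Of the apolipoproteins, lipid transfer proteins and lipoprotein receptors, 5 of 22 were paired, CLU and APOE included. LRP1, a large endocytic receptor for APOE, rose from 54.4 ± 2.78 TPM in light-phase rats to 68.0 ± 3.83 TPM in dark-phase rats (± SD, 6 rats per phase), a log2 fold change of 0.30 (95% confidence interval 0.21 to 0.40, limma FDR = 0.00046), with no overlap between the phases. PLTP, which transfers phospholipids between lipoproteins, was at 248 ± 20.1 TPM and 251 ± 15.4 TPM (± SD, 6 rats per phase, limma FDR = 0.999). LPL (lipoprotein lipase) was at 148 ± 17.8 TPM and 148 ± 7.41 TPM (± SD, 6 rats per phase, limma FDR = 0.998). As a description only, VLDLR, another receptor of APOE and paired through the called genes, had 18.7 to 23.4 TPM in light-phase rats and 17.1 to 19.3 TPM in dark-phase rats.

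CST3, the protease inhibitor, had 32317, 36653 and 40917 TPM (lowest, median and highest) in light-phase rats and 33885, 34721 and 37493 TPM in dark-phase rats. The light-phase libraries lay on both sides of the dark-phase range, with 2 below it and 2 above it. Means were 36607 ± 3600 TPM and 35009 ± 1340 TPM (± SD, 6 rats per phase), and the log2 fold change was -0.07 (95% confidence interval -0.28 to 0.13, limma FDR = 0.636). It turned to 0.083 with the FPKM to TPM covariate (limma FDR = 0.783) and was -0.021 without light-phase replicate 4. Relative to the summed TPM of 5 cathepsins, CST3 was 25.8 to 33.0 times as high in light-phase rats and 27.2 to 28.7 times in dark-phase rats.

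Among the cystatins and cysteine cathepsins, 9 of 17 were paired, CST3 included, and 1 was called (11.1%, against 17.7% of all genes tested). CSTB (cystatin B), an inhibitor inside cells, fell from 219 ± 22.9 TPM in light-phase rats to 181 ± 14.2 TPM in dark-phase rats (± SD, 6 rats per phase, log2 fold change -0.29, limma FDR = 0.0208), although the ranges overlapped. That call was lost without light-phase replicate 4 (log2 fold change -0.262, limma FDR = 0.0514) and with the FPKM to TPM covariate (log2 fold change -0.235, limma FDR = 0.342). The cathepsins paired outside the called genes were not called: CTSB had 578 ± 34.2 TPM and 605 ± 20.3 TPM, and CTSL 348 ± 29.9 TPM and 322 ± 14.4 TPM (± SD, 6 rats per phase, limma FDR = 0.336 and 0.133). For CTSL the unadjusted limma p was 0.0371. As a description only, CTSS, paired through the called genes, had 12.6 to 23.7 TPM in light-phase rats and 16.6 to 32.2 TPM in dark-phase rats.

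Growth factors other than IGF2 were represented by 6 of 37 listed genes (BMP6, BMP7, FGF1, MANF, MDK and TGFB2), of which 2 were called and both rose in dark-phase rats. That is 33.3% of the 6, where 17.7% of all genes tested were called (9.64% higher in dark-phase rats). MANF, a secreted neurotrophic factor that responds to stress of the endoplasmic reticulum, had 212 ± 33.2 TPM in light-phase rats and 332 ± 25.7 TPM in dark-phase rats (± SD, 6 rats per phase). Its log2 fold change of 0.64 (95% confidence interval 0.45 to 0.83, limma FDR = 0.000405) was above the upper bound for each of the 7 genes of the set, and the phases did not overlap. BMP7, a bone morphogenetic protein, rose from 78.4 ± 3.51 TPM to 91.2 ± 6.10 TPM (± SD, 6 rats per phase, log2 fold change 0.20, limma FDR = 0.00915), a call that was lost with the FPKM to TPM covariate (limma FDR = 0.212). TGFB2 was at 165 ± 16.9 TPM and 207 ± 30.6 TPM (± SD, 6 rats per phase) and did not pass (log2 fold change 0.30, limma FDR = 0.0558). MDK (midkine), ranked 18 of all genes, had 4955 ± 615 TPM and 4954 ± 463 TPM (± SD, 6 rats per phase, limma FDR = 0.958).

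Of the receptors of VEGFA, none had a pairing outside the called genes. As a description, VEGFB had 31.7 to 44.6 TPM in light-phase rats and 43.0 to 57.1 TPM in dark-phase rats. In the same order, the receptor FLT1, also on the endothelial list, had 11.8 to 14.4 TPM and 15.3 to 17.7 TPM, and the co-receptor NRP1 had 30.5 to 37.3 TPM and 40.0 to 46.5 TPM. These genes carry their direction from the list that paired them, so nothing is counted from them.

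In the list of further proteins of the choroid plexus, most of them secreted, 15 of 35 were paired, with 1 called in each direction (13.3% together, against 17.7% of all genes tested). PPP1R1B, a phosphatase inhibitor of the cytosol, was among the 15 and was not called (limma FDR = 0.343). TTR, the thyroid hormone carrier, was at 294113 ± 19800 TPM in light-phase rats and 303059 ± 9510 TPM in dark-phase rats (± SD, 6 rats per phase, log2 fold change 0.03, limma FDR = 0.913), with light-phase replicate 2 lowest at 253710 TPM. TF, the iron carrier transferrin, was at 4132 ± 694 TPM and 3820 ± 621 TPM (± SD, 6 rats per phase, limma FDR = 0.503). KL (klotho), a membrane protein of the epithelium that is also shed, rose from 524 ± 14.9 TPM to 649 ± 31.8 TPM (± SD, 6 rats per phase, log2 fold change 0.29, limma FDR = 0.00106), with no overlap. FSTL1, a secreted glycoprotein, fell from 113 ± 18.8 TPM to 94.3 ± 5.39 TPM (± SD, 6 rats per phase, log2 fold change -0.26, limma FDR = 0.0304). Light-phase replicate 2 was the highest library for FSTL1, at 150 TPM, and without it the call stood (log2 fold change -0.194, limma FDR = 0.0142). The call was lost when any 1 of light-phase replicate 4 and dark-phase replicates 2, 3, 4 and 6 was left out (log2 fold change -0.261 to -0.24, limma FDR = 0.0514 to 0.0656). It was also lost with the FPKM to TPM covariate (limma FDR = 0.101), TPM unscaled (limma FDR = 0.068) or the total without TTR (limma FDR = 0.0557).

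Over all these lists without the 7 genes, 38 of 170 genes were paired and 7 were called (18.4%), 5 higher in dark-phase rats and 2 in light-phase rats. That share is near the 17.7% of all genes, and below the 22.5% of the 1703 genes averaging 60 TPM or more, the range in which most genes had a symbol. The median log2 fold change was 0.02 over the 38 genes, -0.00 over the 7 genes and -0.01 over all genes tested.

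**Figure D3:**
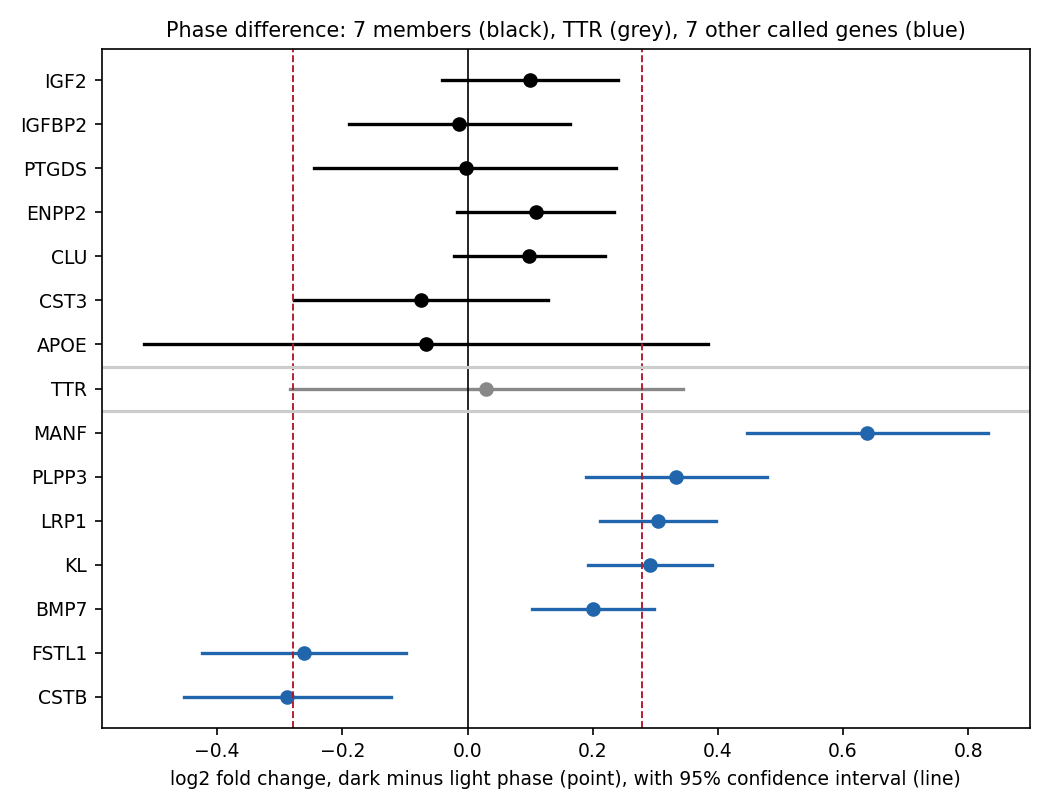
Log2 fold change, dark minus light phase (horizontal axis), with 95% confidence intervals from limma for the 7 secreted protein genes (black), TTR (grey) and the 7 called genes of the lists (blue), n = 6 rats per phase. Dashed red lines mark 0.279 in each direction, the median size over all called genes, and the intervals of 6 of the 7 secreted protein genes lie between them.

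How large a difference could have gone unseen is given by the intervals. The genes called between the phases had a median size of 0.28 on the log2 scale, a change of 21.4%. For 6 of the 7 genes the confidence interval lay within that size in both directions, for CST3 only just, with a lower bound of -0.28. That median is over genes selected by the call itself, at all levels. Among called genes averaging 1000 TPM or more, CLIC6 changed by 0.173, RPS27 by -0.232 and SOSTDC1 by -0.283. The upper bounds of IGF2 (0.241), PTGDS (0.238), ENPP2 (0.234) and CLU (0.22) lay above the change of CLIC6, so that size is not excluded for them. All intervals are those of the model with phase alone. With the FPKM to TPM covariate the difference of IGF2 was 0.226. Leaving out 1 library gave CST3 differences from -0.116 (without light-phase replicate 1) to -0.021 (without light-phase replicate 4). The interval of APOE reached from -30.1 to 30.5% and did not have this precision.

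The spread between rats of 1 phase differed among the 7 genes. As an SD of log2 values within phases it was lowest for CLU (0.079) and ENPP2 (0.086), below the median of 0.0934 over the 1703 genes averaging 60 TPM or more. IGF2 (0.113), CST3 (0.133) and IGFBP2 (0.141) followed, and PTGDS reached 0.207, above 91.6% of those genes. APOE, with 0.409, lay above 97.8% of them. Without light-phase replicate 2 (a value added after the data were seen) it had 0.202, still above 92.6% of them and next to 0.208 for PTGDS. IGF2 went to 0.077 without that library, and the other 4 genes moved by little (0.083 to 0.141).

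**Figure D4:**
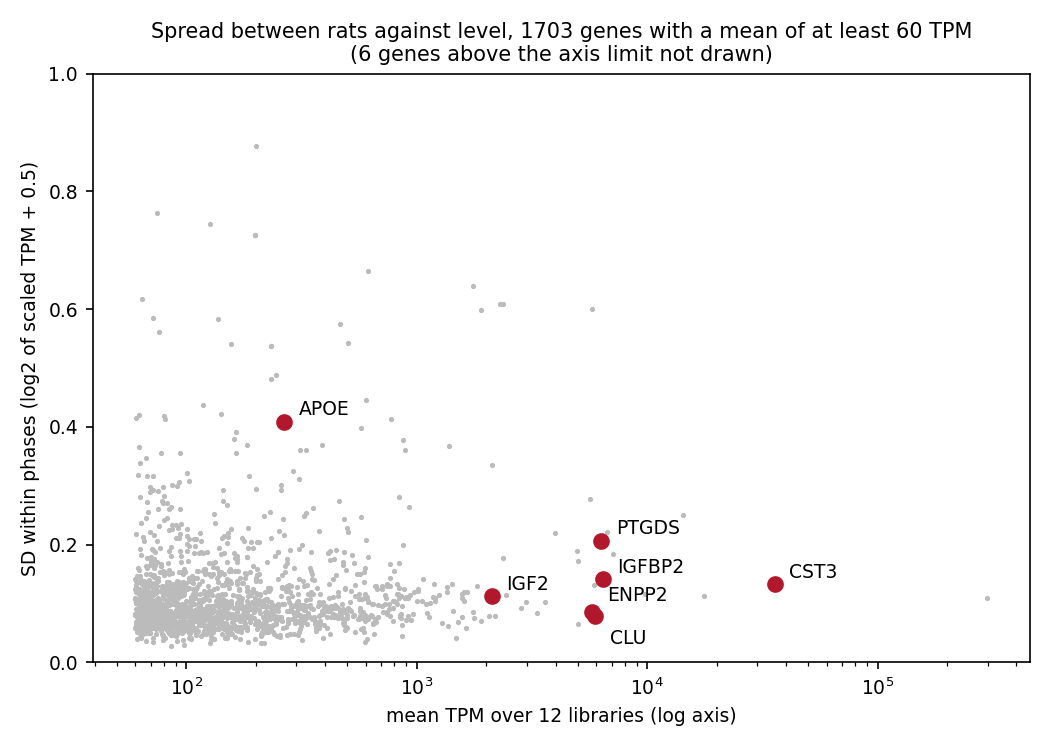
SD of log2(scaled TPM + 0.5) within phases (vertical axis) against mean TPM over 12 libraries (horizontal log axis), for 1703 genes averaging 60 TPM or more (grey; 6 genes above the axis limit are not drawn) and the 7 secreted protein genes (red). CLU (0.079) and ENPP2 (0.086) lie below the median of 0.0934, PTGDS (0.207) and APOE (0.409) well above it, the latter being 0.202 without light-phase replicate 2.

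Some of the 7 genes varied together between rats of the same phase. After the phase means were removed, PTGDS correlated over the 12 libraries with CLU (r = 0.76) and CST3 (r = 0.66), and CLU with CST3 (r = 0.55). ENPP2, as strong as PTGDS and CLU, did not follow them (r = -0.32 and -0.20), and IGF2 and IGFBP2 had r = 0.47. IGF2 and APOE had r = -0.61, which turned to 0.21 without light-phase replicate 2. These values are given without a test, since 2 genes measured in the same library have its tissue composition, depth and scaling in common.

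The genes of at least 60 TPM whose pattern between rats was most like each of the 7 were ranked in the same way. For PTGDS they were SLC48A1 (r = 0.90), TF (r = 0.86) and SLC3A2 (r = 0.83), and TF had its highest values in light-phase replicates 2 and 4 and dark-phase replicate 6, the libraries with the highest PTGDS. IGFBP2 was closest to GAS6 (r = 0.95), IGF2 to PPP5C (r = 0.96), ENPP2 to PRKAR1A (r = 0.91), CST3 to KRTCAP2 (r = 0.93) and CLU to PXYLP1 (r = 0.80). Leaving out light-phase replicate 2 left these at 0.81 to 0.96. Each is the best of up to 1677 genes searched over 12 libraries. High values can arise from such a search alone, and none was tested.

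APOE was closest to MGP (r = 0.93), TPM4 (r = 0.93) and VIM (r = 0.92), genes of vessels, stroma and the cytoskeleton. Without light-phase replicate 2 the values dropped to 0.65, 0.62 and 0.61. The likeness of APOE to these genes over all libraries therefore rested largely on 1 library.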

How the data were processed

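Choroid plexus RNA from 12 rats was sequenced with paired-end reads, 1 library per rat. The authors used STAR 2.7.9a for mapping (Rnor_6.0) and RSEM 1.3.3 for quantification, and deposited TPM and FPKM. TPM values are printed as deposited by the authors, and FPKM values, also deposited, served only for relative depth (from 515 weak genes) and for the FPKM to TPM ratio. The paper states a sequencing output, but the reads behind each value are unknown, so precision rests on the spread between rats. For tests, TPM was scaled by a trimmed mean of ratios (30% of ratios and 5% of levels trimmed at each end), 0.5 was added, and log2 values of the 12513 genes averaging 1 TPM or more were compared between phases with limma 3.58.1 in R 4.3.3 (mean trend, Benjamini-Hochberg FDR below 0.05). The added 0.5 TPM understates changes of weak genes. Exact permutation tests were two-sided, with 0.00216 the smallest p possible. The script was tested on simulated data. The design had also named a count-based test, which these units do not allow.

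Symbols came from the study's gene lists. The list of transcribed genes was held for its 1997 strongest genes, so that weaker genes of the pathways were mostly unpaired, and 11 pathway genes paired only through lists of called genes were kept out of all counts. Named genes were the 7 genes, called genes of the lists, and examples that explain each pathway. The genes and lists were chosen with earlier results of these data known. Alternatives covered scaling, filter, pseudocount, sample weights, a covariate, a replicate block and leaving out each library. The FPKM to TPM ratio was used as covariate because it differed between phases (0.953 to 0.987 in the light phase, 0.934 to 0.960 in the dark phase). As the ratio nearly separates the phases, a model with both can hardly tell them apart. A call lost with the covariate therefore does not show that phase had no effect.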

Additional observations from a re-analysis of the deposited data

Results flagged for a closer look

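In groups of 6 libraries, a highest or lowest value was singled out when its gap to the nearest other library was large for the range of the group (Dixon's criterion). Of 56 groups examined, 13 had such a value, where chance gives about 1 in 20 groups, or 2.8 here. Light-phase replicate 2 held 10 of the 13. The genes examined included the markers already set against that library above, and some of them vary together, such as HBB and HBA-A1. The groups are therefore not independent, and the excess over 2.8 is no separate evidence about that library. In that library the values were 561 TPM for APOE, 17058 TPM for HBA-A1, 5535 TPM for HBB, 721 TPM for IGFBP7, 1607 TPM for MGP, 124 TPM for PLVAP, 119 TPM for SPARCL1, 188 TPM for VIM and 150 TPM for FSTL1, each the highest of the light phase, and 253710 TPM for TTR, the lowest. The other 3 were ALDOC at 107 TPM in light-phase replicate 1 and at 81.3 TPM in dark-phase replicate 6, and PLVAP at 96.8 TPM in dark-phase replicate 5. Of the 7 secreted protein genes, APOE was the only one singled out.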

How the results depend on the processing

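None of the 7 genes was called under any of 24 alternatives. IGF2, ENPP2 and CLU kept their direction in all of them, IGF2 going from 0.10 to 0.226 with the FPKM to TPM ratio as covariate. The largest move of the 7 was that of APOE, from -0.066 to -0.477 with this covariate (limma FDR = 0.440). Values close to 0 changed sign: IGFBP2 went to 0.17 with the FPKM to TPM ratio as covariate, 0.002 with TPM unscaled and 0.02 with the total without TTR. PTGDS went to 0.012 with TPM unscaled, 0.03 with sample weights and 0.03 with the total without TTR, CST3 to 0.083 with the covariate, and APOE to 0.065 with sample weights. Leaving out 1 library gave -0.053 to 0.03 for IGFBP2, -0.056 to 0.082 for PTGDS and -0.14 to 0.14 for APOE, the last without light-phase replicate 2. The covariate reduced all called genes from 2217 to 346 (225 higher in the dark phase, 121 in the light phase). The ratio nearly separates the phases, so that phase and covariate can hardly be told apart in this model, and the cause was not tested. Called list genes higher in the light phase (2) went to 0 with the covariate and to 1 with TPM unscaled, with the total without TTR and with the replicate block, and to between 0 and 2 without 1 library. CSTB, FSTL1 and BMP7 lost their calls with the covariate (limma FDR = 0.342, 0.101 and 0.212), with log2 fold changes of -0.235, -0.385 and 0.183 against -0.288, -0.261 and 0.20. The replicate numbers did not pair the samples (deviations of equally numbered libraries correlated between -0.11 and 0.05, and 0 of 6 matched best), and with the replicate block 1599 genes were called and FSTL1 was lost (limma FDR = 0.0566).

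The design compares 2 times of day with 6 rats each and cannot give a rhythm. Transcript levels do not measure secreted protein. Genes without a symbol in the lists could not be examined.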
